A study of Mus musculus with 12 samples.

Results

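The loci of 4 microRNAs or microRNA clusters were followed in 2 lists of R-loop peaks. R-loop peaks covered Mir22hg and its hairpin in both sources, ended short of the hairpins of Mir122 and of the Mir17hg cluster in both sources, and covered the Mir21a hairpin in HEPA1-6 only. Of the 313 RefSeq microRNA genes with a HEPA1-6 peak within 1 kb, 145 had no such liver peak, Mir21a included. The loci are Mir122, Mir17hg, Mir22hg and Mir21a, which were taken by name. At each, the peaks over the RefSeq gene body with 1 kb on both sides were counted, and the peaks within 20 kb on both sides were described. These are 4 of the 49943 RefSeq genes placed on GRCm38, which include 1228 microRNA genes. Of 28717 HEPA1-6 peaks, 9 lay in the 20 kb windows, and of 14908 liver peaks, 8 did.

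The study mapped R-loops, in which RNA pairs with a DNA strand and displaces the other, by immunoprecipitation with the hybrid-binding antibody S9.6. The sources were HEPA1-6, a mouse hepatoma line grown in culture, and liver of C57/Bl6 mice. Both were labelled wild type and untreated. The 12 libraries formed 6 groups of 2: immunoprecipitate, immunoprecipitate with RNase H1, which degrades the RNA of hybrids, and input, for each source. The age and number of the mice were not given, and HEPA1-6 is a single tumour-derived line. The files used here hold 1 peak list per source, called on a merged immunoprecipitate against input. No difference between the lists therefore has a replicate check, no p-value is given, and the RNase H1 libraries were not analysed here. The depth behind the peaks is unknown, and a peak below the authors' threshold is not listed.

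MicroRNAs are short RNAs that pair with messenger RNAs through their seed, the bases near their 5′ end, and lower the output of these messengers. They are cut by Drosha and then by Dicer1 from hairpins in longer primary transcripts, which can be noncoding host RNAs or introns of coding genes. In the liver, miR-122 is the dominant microRNA of hepatocytes, miR-21 rises in injury and in tumours, miR-22 is a broadly expressed regulator of metabolism and growth, and the miR-17-92 cluster is a target of Myc that is active in dividing cells.

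The mature microRNAs of the loci on chromosomes 11 and 14 are shown because they give the seeds made from the 6 hairpins of the Mir17hg cluster, some of them shared, beside those of the single hairpins of Mir22hg and Mir21a. The sequences are from RefSeq (GRCm38.p6), written 5′ to 3′ with the seed, bases 2 to 8, in capitals. The sequence of miR-122 was not used here.
miR-17-5p: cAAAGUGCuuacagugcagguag
miR-20a-5p: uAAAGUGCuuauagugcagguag
miR-18a-5p: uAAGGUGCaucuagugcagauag
miR-19a-3p: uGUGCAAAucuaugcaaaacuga
miR-19b-3p: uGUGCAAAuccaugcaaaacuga
miR-92a-3p: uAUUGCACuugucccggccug
miR-22-3p: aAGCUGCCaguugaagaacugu
miR-21a-5p: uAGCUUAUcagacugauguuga
The RefSeq table gave 15 mature sequences with 13 different seeds for the 8 microRNA genes at these 3 loci. miR-17-5p and miR-20a-5p share the seed AAAGUGC, and miR-19a-3p and miR-19b-3p share GUGCAAA. The first seed occurs in 7 mature names among the 1679 searched, including miR-93-5p and miR-106b-5p. The seed AUUGCAC of miR-92a-3p occurs in 6, including miR-25-3p. The seed of miR-22-3p occurs in no other name, and that of miR-21a-5p only in miR-21c besides.

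By the 1 kb rule, 3 of the 4 loci held a HEPA1-6 peak, 2 a liver peak, and 2 a peak in both lists. The peaks numbered 4 in HEPA1-6 and 2 in liver. Over all RefSeq microRNA genes, the same rule gave a peak at 25.5% in HEPA1-6 (313 of 1228), 13.9% in liver and 13.7% in both lists. Over 12727 lncRNA genes, the class of Mir17hg and Mir22hg, it gave 13.6%, 8.97% and 7.54%. The 4 loci, chosen by name, are too few to read a share from. All 4 loci had a peak of each list inside the 20 kb window. Without the flank, Mir22hg and Mir21a held a HEPA1-6 peak and Mir22hg alone a liver peak. With 5 kb, all 4 held both.

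**Figure D1:**
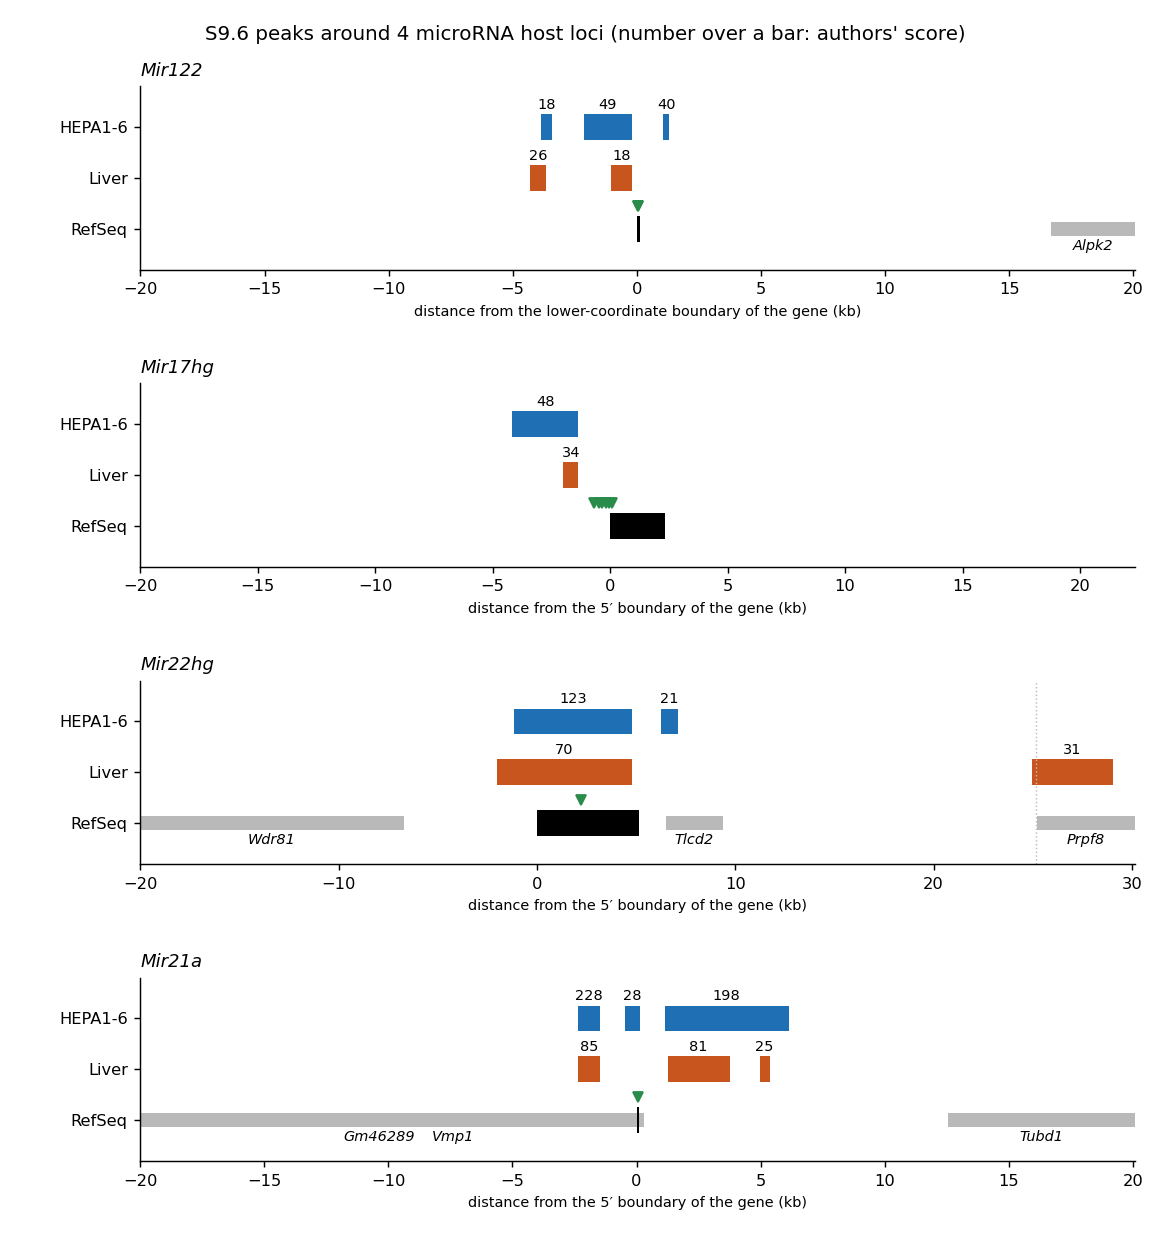
Peaks of the HEPA1-6 list (blue) and the liver list (orange) around each locus, drawn to scale by distance in kb, with the authors' score over each peak. Black bars are the RefSeq gene, green triangles the microRNA hairpins, and grey bars neighbouring genes. The dotted line in the Mir22hg panel is the end of its 20 kb window, and the HEPA1-6 peak over Prpf8 that begins beyond it is not drawn. Mir22 lies under a peak in both lists and Mir21a in HEPA1-6, while the hairpins of Mir122 and of the Mir17hg cluster lie beside peaks.

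Mir22hg, the noncoding host gene of miR-22, held the widest peaks of the 4 loci. The gene spans chr11:75461539-75466690 on the plus strand, and the Mir22 hairpin lies inside it at 75463716 to 75463810. The HEPA1-6 peak ran from 75460403 to 75466324 (5922 bp, score 123), and the liver peak from 75459538 to 75466324 (6787 bp, score 70). Both ended at the same base, and both covered 4786 of the 5152 bases of the gene (92.9%), so that only the last 366 bases lay outside. They began 1136 and 2001 bases before its 5′ boundary. A peak score is the authors' whole number on an unstated scale, with list medians of 21 and 22, and ranks peaks only within their own list. Within its list, the HEPA1-6 peak stood at percentile 98.3 and the liver peak at percentile 95.9. Among microRNA genes with a peak within 1 kb, a score at least this high was found at 22 of 313 in HEPA1-6 and at 17 of 171 in liver, the Mir22 gene included.

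The Mir22 hairpin and the start of its host gene are printed because both lie wholly under the peak of each list. In the hairpin, capitals mark the 2 mature arms. In the window from 250 bases before to 50 bases after the start of Mir22hg (chr11:75461289-75461588, plus strand), capitals mark runs of GGGG.
Mir22 hairpin: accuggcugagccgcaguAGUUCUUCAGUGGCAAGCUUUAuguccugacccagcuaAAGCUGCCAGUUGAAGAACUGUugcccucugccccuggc
Mir22hg start: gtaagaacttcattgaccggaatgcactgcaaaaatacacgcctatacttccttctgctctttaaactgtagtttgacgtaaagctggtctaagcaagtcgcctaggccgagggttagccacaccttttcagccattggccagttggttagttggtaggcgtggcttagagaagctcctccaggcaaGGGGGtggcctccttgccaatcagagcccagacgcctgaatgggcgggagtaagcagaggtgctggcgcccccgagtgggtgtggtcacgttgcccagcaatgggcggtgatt
The window had a GC content of 54.7% (percentile 56.1 of 32851 such windows in the RefSeq promoter table) and a GC skew, (G-C)/(G+C), of 0.098 (percentile 72.5). Its ratio of observed to expected CpG was 0.541 (percentile 60.5). GGGG occurred on the plus strand in one run, as in 69.0% of windows, and CCCC occurred as well, as in 66.6%. On either strand GGGG is found in 86.4% of windows. TATAAA, searched on both strands, was not in these letters, and 13.6% of windows hold it. Windows that overlapped a HEPA1-6 peak had a median GC content of 62.7% and a median CpG ratio of 0.814, against 51.0% and 0.317 for the others, and in liver these medians were 63.3% and 0.833 against 51.7% and 0.337. The start of Mir22hg was thus less rich in GC and CpG than the median window with a peak. The median skew was 0.007 with and 0.013 without a HEPA1-6 peak, and 0.015 and 0.013 for liver.

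Beyond its 3′ end, the window of Mir22hg held 1 further peak in each list. The HEPA1-6 peak (75467797 to 75468649, score 21) lay over the start of Tlcd2, 1107 bases from Mir22hg, and no liver peak overlapped it. The liver peak (75486507 to 75490579, score 31) began 19817 bases away and overlapped Prpf8, a core protein of the spliceosome. It met a HEPA1-6 peak that began just past the window, 20401 bases from Mir22hg, and ran from 75487091 to 75499370 (score 45). Wdr81, on the other side, held no peak in either list.

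Mir21a, the gene of miR-21, is a hairpin of 92 bases at chr11:86584067-86584158 on the minus strand. It lies inside Vmp1, a gene for a membrane protein of autophagy that spans 86583858 to 86683836 on the same strand, 209 bases from its 3′ boundary. Gene boundaries only were available, so exons and introns of Vmp1 were not told apart. The primary transcript of miR-21 is known to overlap the last part of Vmp1 and to have a promoter of its own there. In the window lay 3 HEPA1-6 peaks, all on the minus strand. The first, from 86585620 to 86586530 (911 bp), scored 228 and began 1462 bases upstream of the hairpin. The second, from 86584030 to 86584618 (589 bp, score 28), covered the whole hairpin. The third, from 86578025 to 86583018 (4994 bp, score 198), lay downstream of the hairpin, from 840 bases past the 3′ boundary of Vmp1.

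Of the liver peaks in this window, 1 had exactly the interval of the first HEPA1-6 peak, 86585620 to 86586530, with a score of 85. Downstream there were 2, from 86580409 to 86582901 (2493 bp, score 81) and from 86578792 to 86579199 (408 bp, score 25, no strand), and the third HEPA1-6 peak overlapped both. No liver peak lay within 1 kb of the hairpin: the nearest ended 1166 bases away, and the gap between the flanking peaks was 2718 bp. The hairpin was therefore under a peak in HEPA1-6 and between peaks in liver. The peak over the hairpin was the lowest of the 3 in HEPA1-6 (percentile 69.9), while its neighbours stood at percentiles 99.5 and 99.3, ranks 145 and 194 of the list. In liver the 2 higher peaks stood at percentiles 97.2 and 96.9.
Mir21a hairpin: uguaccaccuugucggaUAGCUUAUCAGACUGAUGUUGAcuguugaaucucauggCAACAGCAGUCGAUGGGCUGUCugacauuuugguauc
The hairpin is printed with both mature arms in capitals, because it is the only microRNA hairpin in the 4 windows that a peak of one list covered and the other did not.

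No peak of either list lay at the 5′ end of Vmp1. Its 3 HEPA1-6 and 2 liver peaks, counted with 1 kb on both sides, all lay at least 97306 bases from the 5′ boundary of a gene 99979 bp long. The 3 start windows of Vmp1 in the promoter table were free of peaks in both lists, although the outermost had a GC content of 60.3% and a CpG ratio of 1.03 (percentile 95.8). Among 3867 protein-coding genes of at least 50 kb with a known strand, 1840 held a HEPA1-6 peak, and in 963 of these (52.3%) none lay within 1 kb of the 5′ boundary. All peaks lay in or beyond the last 10% of the gene body in 134 (7.28%) in HEPA1-6 and in 121 of 1360 (8.90%) in liver, Vmp1 among them. Of the neighbours, Tubd1, a tubulin gene, held 1 HEPA1-6 peak (score 26), which lay outside the 20 kb window, and no liver peak. Gm46289 held none.

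Mir17hg is the noncoding host gene of the miR-17-92 cluster. It had no peak within 1 kb in either list. RefSeq places Mir17hg at chr14:115044390-115046728 on the plus strand, so that 5 of the 6 hairpins, in 836 bp from Mir17 to Mir92-1, start before its 5′ boundary and 4 lie wholly before it. The nearest peak ended at 115043032 in both lists, 1358 bases upstream of that boundary and 639 bases upstream of Mir17, the first hairpin. It began at 115040209 in HEPA1-6 (2824 bp, score 48) and at 115042401 in liver (632 bp, score 34). The liver peak thus covered the last 632 bases of the HEPA1-6 peak, which reached 2192 bases further upstream. Both peaks had the strand of the cluster, and they stood at percentiles 89.7 and 79.1 of their lists.

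Of the 6 hairpins, Mir17, Mir18 (miR-18a) and Mir19a lay within 1 kb of this peak in both lists, and Mir20a, Mir19b-1 and Mir92-1 lay beyond, at 1125, 1273 and 1395 bases. None was covered. With the boundary moved to the first hairpin, a choice made after seeing the data, Mir17hg held a peak in both lists. No other peak or gene lay in the window.

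The RefSeq start window of Mir17hg (chr14:115044140-115044439, plus strand) is printed to show that it lies inside the cluster: it holds the whole Mir20a and Mir19b-1 hairpins and the first bases of Mir92-1. Capitals mark only the 2 mature arms of miR-20a, in DNA letters, and those of the other hairpins are left unmarked.
Mir17hg start: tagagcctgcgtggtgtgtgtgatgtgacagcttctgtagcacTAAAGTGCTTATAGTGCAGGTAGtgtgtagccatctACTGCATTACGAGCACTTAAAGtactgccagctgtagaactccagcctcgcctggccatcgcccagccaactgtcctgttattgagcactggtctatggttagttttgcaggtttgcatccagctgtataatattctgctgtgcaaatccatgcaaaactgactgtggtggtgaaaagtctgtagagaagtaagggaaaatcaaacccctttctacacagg
No peak of either list overlapped this window. It had a GC content of 47.0% (percentile 29.1), a skew of 0.064 (percentile 64.2) and a CpG ratio of 0.242 (percentile 34.7). It held no GGGG on the plus strand and CCCC once, and TATAAA was not in it on either strand.

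**Figure D2:**
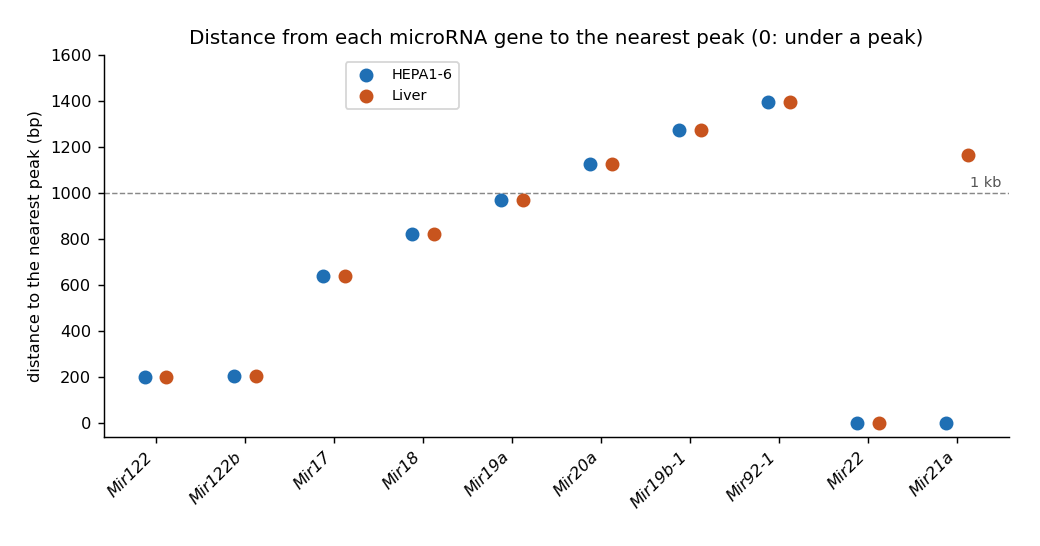
Distance in bp from each of the 10 microRNA genes in the 4 windows to the nearest peak of the HEPA1-6 list (blue) and of the liver list (orange), with 0 for a gene under a peak and a dashed line at 1 kb. The distances are the same in both lists for all but Mir21a, which is covered in HEPA1-6 and 1166 bases from a peak in liver.

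The paralogous clusters show different arrangements. Mir106b, Mir93 and Mir25 lie together inside Mcm7, a gene of the replication helicase, and all 3 were under 1 peak in each list, from 138162475 to 138173568 on chromosome 5 in HEPA1-6 (score 134) and from 138164048 to 138173568 in liver (score 78). Mir106a, Mir20b, Mir19b-2, Mir92-2 and Mir363, a cluster on the X chromosome, held no peak in either list. Levels of the microRNAs themselves were not analysed here, and a peak is no measure of them.

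Mir122 is the gene of the main hepatocyte microRNA and covers 66 bases on chromosome 18, from 65248861 to 65248926. It held 2 HEPA1-6 peaks and 1 liver peak within 1 kb, and no peak of either list covered it. The HEPA1-6 peak from 65246724 to 65248660 (1937 bp) scored 49 and ended 201 bases from the gene. The liver peak from 65247810 to 65248660 (851 bp) scored 18, ended at the same base, and lay wholly inside the HEPA1-6 peak. A second HEPA1-6 peak, from 65249918 to 65250154 (237 bp, score 40), began 992 bases past the gene, just inside the 1 kb rule. The gene thus lay in a gap of 1257 bp between HEPA1-6 peaks, and no liver peak was listed on its far side. Further out, each list had a peak, at 65245011 to 65245429 in HEPA1-6 (score 18) and at 65244572 to 65245208 in liver (score 26), which overlapped by 198 bases.

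All 5 peaks around Mir122 had the plus strand, and none touched a RefSeq gene. The tables used here gave no strand for Mir122, so sides are named by coordinates only. In HEPA1-6, the peak next to the gene was the highest of the window, at percentile 90.2 of the list. In liver, the peak next to it was the lower of the 2, at percentile 34.2, below the list median of 22, and the farther peak stood at percentile 64.0. Among microRNA genes with a peak, a highest score of at least that of Mir122 was found at 105 of 313 in HEPA1-6 and at 148 of 171 in liver. Percentiles of lists of unequal length do not measure a change between sources. Alpk2, the only other gene of the window besides Mir122b, which overlaps Mir122, held no peak in either list over its 128360 bp.

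**Figure D3:**
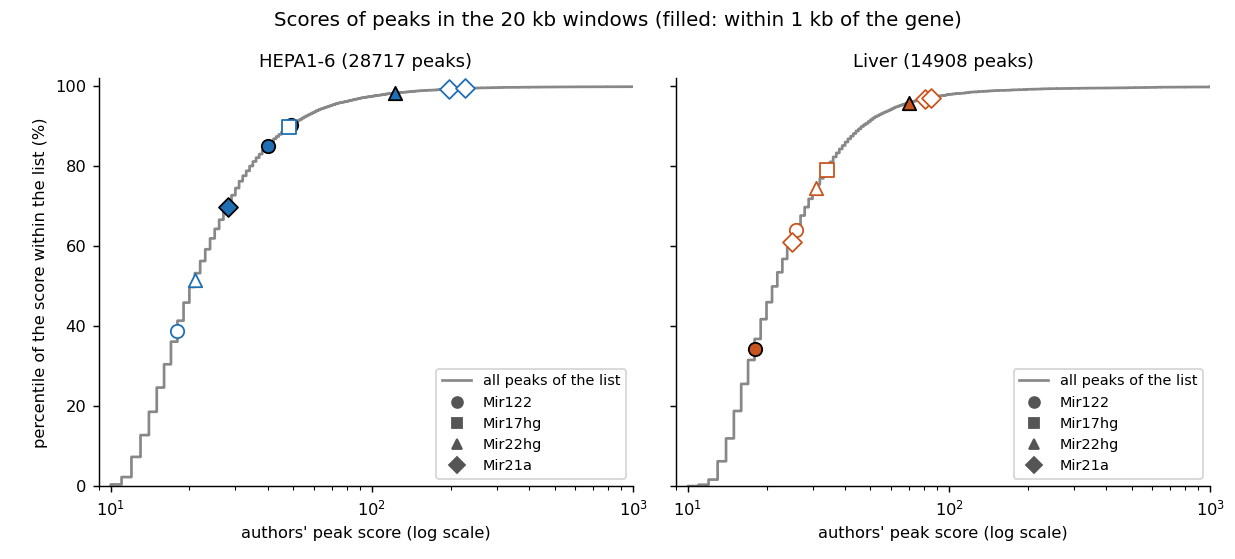
The authors' score (x axis, log scale) against its percentile within the list for the peaks of the 4 windows, on the curve of all peaks of HEPA1-6 (left) and liver (right), drawn up to a score of 1000. Filled symbols are peaks within 1 kb of the gene and open symbols those farther out. The peak over Mir22hg and the nearest peak on each side of Mir21a outside the hairpin lie above percentile 95 in both lists, and the Mir122 peaks lie lower in both.

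The overlap of the lists was counted over the 4 windows. Of the 9 HEPA1-6 peaks 6 met a liver peak (66.7%), against 31.8% over the whole list, and all 8 liver peaks met a HEPA1-6 peak, against 75.9%. With an overlap of 50% of both peaks required, 2 in each list remained, the pairs at Mir22hg and upstream of Mir21a. A pair downstream of Mir21a fell just short, with 2493 shared bases in a HEPA1-6 peak of 4994 bp. By bases, HEPA1-6 peaks covered 100% of the liver peaks at Mir17hg and Mir21a, 86.7% at Mir22hg and 70.5% at Mir122. In the other direction liver peaks covered 22.4% of HEPA1-6 bases at Mir17hg, 40.5% at Mir122, 58.7% at Mir21a and 87.4% at Mir22hg. The scores ran from 18 to 228 in HEPA1-6 (median 48) and from 18 to 85 in liver (median 32.5), and 7 peaks in each list exceeded the list median.

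Peak edges coincided between the lists. Of 7 overlapping pairs in the windows, 4 had at least 1 edge at the same base, and 1 had both. Over the whole lists this was so for 5281 of 11455 pairs (46.1%) and 721 pairs (6.29%). Edges were therefore compared with cutting sites of enzymes often used to fragment DNA for R-loop immunoprecipitation: HindIII (AAGCTT), EcoRI (GAATTC), XbaI (TCTAGA), SspI (AATATT) and BsrGI (TGTACA), each of which reads the same on both strands. Whether and with which enzymes the DNA was cut is not given in the sources used here. No edge of a peak in the 4 windows falls inside a promoter window or hairpin whose sequence was used here. In the promoter windows of all genes, 460 of 854 HEPA1-6 edges (53.9%) and 338 of 788 liver edges (42.9%) lay in such a site, against 0.805% of all positions tested there. The distances of 201, 639 and 1166 bases between peaks and hairpins are thus distances to edges of a kind that often coincides with these sites, and the part of this in the distances was not tested. The Mir22 hairpin itself holds a HindIII site (75463748 to 75463753), under the peak of both lists, and the Mir17hg start window an SspI site (115044348 to 115044353).

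The strand of a peak was taken as the authors give it. Of the peaks in the windows of Mir17hg, Mir22hg and Mir21a, all 6 in HEPA1-6 and 5 of 6 in liver had the strand of the microRNA locus, and the sixth had none. These counts include the HEPA1-6 peak over Tlcd2 and the liver peak over Prpf8, genes that lie on the plus strand as Mir22hg does. Over the lists, 93.4% of HEPA1-6 and 90.6% of liver peaks that touched exactly 1 gene of known strand had that gene's strand. Peaks of the windows that touched no RefSeq gene had a strand in 5 of 5 cases in HEPA1-6 and 4 of 5 in liver, against 62.4% and 36.6% of all such peaks in the lists. How the strand was given is not stated in the sources used here.

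The peak pairs most like those of the members were looked for among the microRNA genes outside the windows, by the distance between their percentiles over the 2 lists. Of 162 genes with a peak in both lists, Mir3082 (scores 121 and 71), Mir6990 (138 and 67) and Mir142 (108 and 66) came nearest to Mir22hg, within 0.765 percentile points. Mir7088 (43 and 18), Mir2861 (46 and 19) and Mir5114 (73 and 17) came nearest to Mir122, at 3.03, 5.29 and 7.82 points. For Mir21a, with a peak in HEPA1-6 only, 7 of 144 candidates had the same score of 28, among them Mir126a, Mir126b and Mir6244.

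Other microRNA genes gave a frame for the 4 loci. Of 25 microRNA genes listed for their abundance or role in liver, which include Mir122, Mir22 and Mir21a, HEPA1-6 peaks lay at 15 (60.0%, Wilson 95% interval 40.7 to 76.6%) and liver peaks at 9 (36%, 20.2 to 55.5%). Of 28 growth-linked microRNA genes, which include the Mir17hg cluster, 10 (35.7%, 20.7 to 54.2%) and 9 (32.1%, 17.9 to 50.7%) did. The shares over all microRNA genes were those given above, 25.5% and 13.9%. Genes of a cluster share a peak, so these intervals, which cover counting error only, are too narrow. Every listed gene with a liver peak also held a HEPA1-6 peak, as did 168 of all 171 microRNA genes with a liver peak. Highest in HEPA1-6 was Mirlet7d (scores 159 and 60), next to which came the Mir106b cluster, Mir22, and Mirlet7b with Mirlet7c-2 (107 and 49). Mir192 and Mir194-2, a pair of liver microRNAs, had a HEPA1-6 peak of score 14 and no liver peak. The same held for Mir24-1 (38), Mir33 (30), Mir101b (29), Mir21a (28) and the growth-linked Mir34a (22). Mir24-1 lay under the same HEPA1-6 peak as Mir23b and Mir27b, which had a liver peak within 1 kb (score 45). That liver peak ended at 63300184 and Mir24-1 starts at 63301208, just outside the 1 kb rule. Over all microRNA genes, 145 of the 313 with a HEPA1-6 peak had no liver peak. Of 14 host genes named Mir with the ending hg, 3 held a HEPA1-6 peak, namely Mir22hg, Mir99ahg (score 28) and Mir133a-1hg (score 12, percentile 4.84). Mir22hg alone held a liver peak. The shares were 21.4% (7.57 to 47.6%) in HEPA1-6 and 7.14% (1.27 to 31.5%) in liver. Over all lncRNA genes they were 13.6% and 8.97%, inside these intervals.

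**Figure D4:**
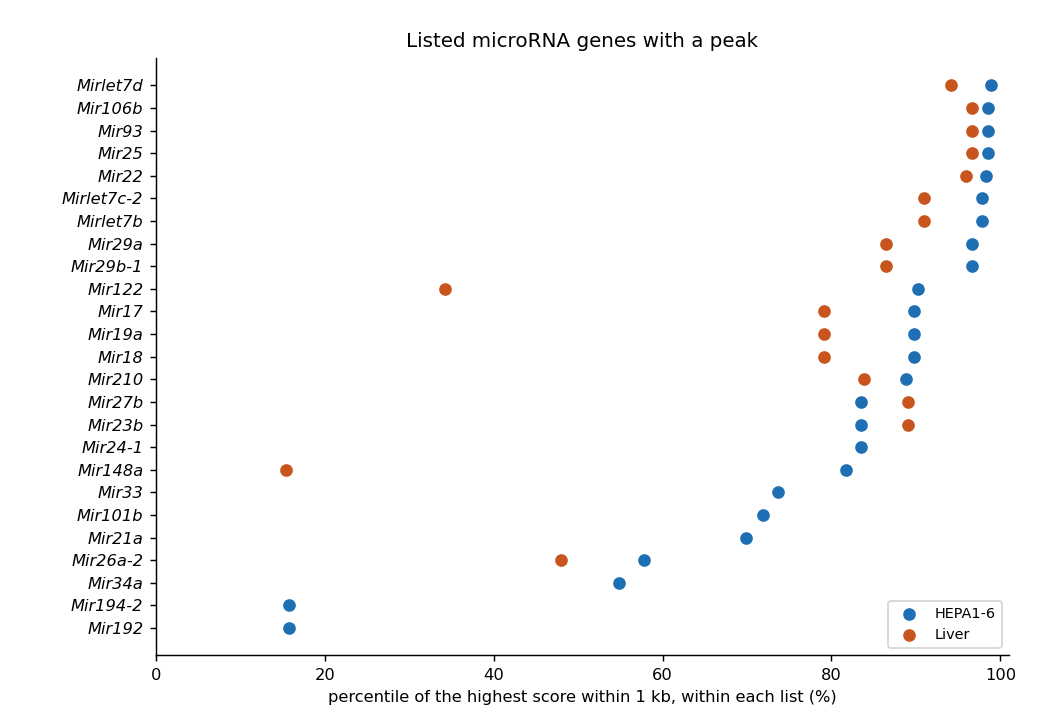
Percentile of the highest score within 1 kb, within each list, for the 25 listed microRNA genes with a peak, in HEPA1-6 (blue) and, where a peak was listed, in liver (orange). Genes of 1 cluster share values. Mir122 and Mir148a have the widest spacing between their percentiles, and 7 genes, Mir21a among them, have no liver peak. Percentiles of lists of unequal length do not measure a change between sources.

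The position of a microRNA gene was compared next. Inside a protein-coding or lncRNA gene, 266 of 957 microRNA genes lay at a HEPA1-6 peak (27.8%), and outside such genes 47 of 271 did (17.3%, interval 13.3 to 22.3%). For liver peaks the inside share was 14.2% (interval 12.1 to 16.6%) and the outside share 12.9% (9.43 to 17.4%), and these intervals overlap. The intervals of both lists are too narrow, since genes of a cluster share a peak, and no difference was tested. A peak covered the microRNA gene itself at 17.9% in HEPA1-6 and 8.14% in liver. In the 4 windows, 2 of 10 microRNA genes were covered in HEPA1-6 and 1 of 10 in liver.

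Genes that make and use microRNAs were set beside all protein-coding genes, where 42.0% had a peak in HEPA1-6 and 29.7% in liver. Among 22 genes of microRNA processing, HEPA1-6 peaks lay at 17 (77.3%, 56.6 to 89.9%) and liver peaks at 15 (68.2%, 47.3 to 83.6%). Their median length was 42444 bp against 17169 bp, and longer genes have more room for a peak, so the shares are not matched. Drosha, the nuclear enzyme that cuts hairpins from primary transcripts, held 13 HEPA1-6 and 12 liver peaks, with highest scores of 36 and 31. Dgcr8, its partner, held 4 and 1 (48 and 24), Xpo5, the export factor, 3 and 2 (55 and 40), and Dicer1 6 and 1 (32 and 19). Ran, the GTPase that powers export, had the highest scores of the list, 450 and 249. Prkra and Tut4 held a peak in HEPA1-6 only, as did 3114 of the 9191 protein-coding genes with a HEPA1-6 peak. Of the Argonautes, which carry microRNAs to their targets, Ago2 held 12 and 7 peaks, and Ago1, Ago3 and Ago4 held none. Ago2 lies on chromosome 15, as does Drosha, and Ago1, Ago3 and Ago4 lie together on chromosome 4. The part of the chromosome in these counts was not tested.

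**Figure D5:**
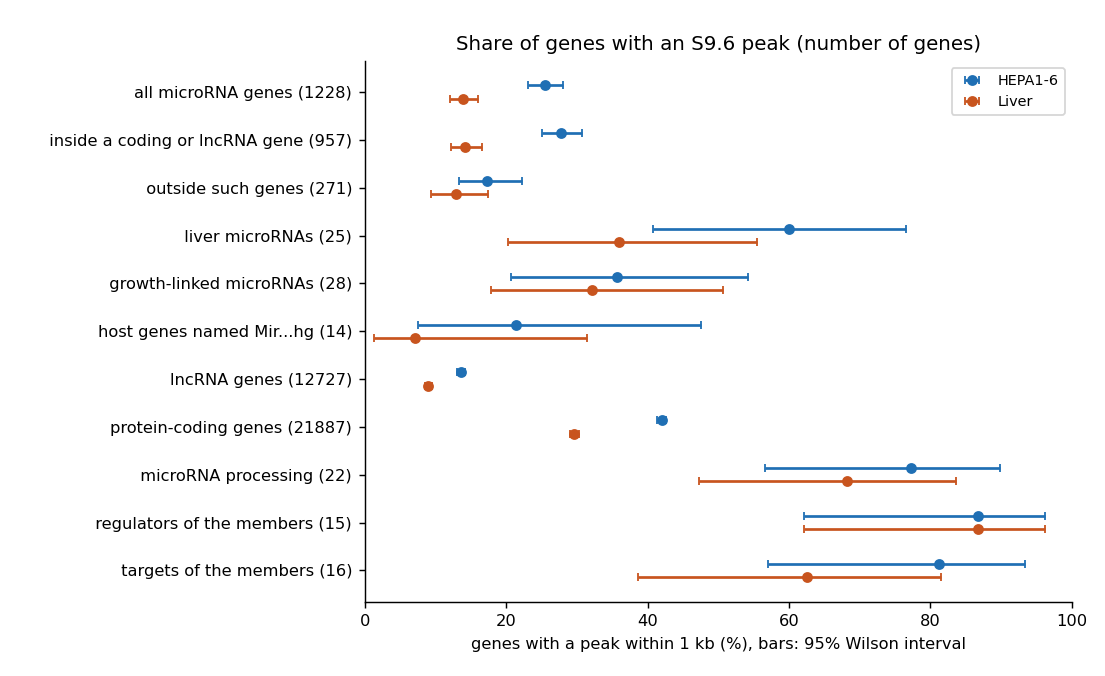
Share of genes in each group with a peak within 1 kb in HEPA1-6 (blue) and liver (orange), with 95% Wilson intervals and the number of genes in parentheses. Groups differ in gene length, and only the microRNA groups are alike in it. Genes of a cluster share a peak, and the lists were chosen with earlier results known. The shares of both microRNA lists lie above those of all microRNA genes in HEPA1-6 and in liver, with wide intervals. The growth-linked interval in HEPA1-6 (20.7 to 54.2%) holds the 25.5% of all microRNA genes.

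Of 15 factors listed as regulators of the 4 loci, 13 (86.7%) held a peak, the same number in both lists and in both at once, where all protein-coding genes gave 42.0% and 29.7%. The median length of these factors was 10493 bp. Hnf4a (scores 39 and 39), a hepatocyte factor, and Myc (118 and 58), a driver of the miR-17-92 cluster and the highest of this list in both sources, were among them. The HEPA1-6 peak of score 118 covered the whole Myc gene, on chromosome 15. The liver peak of score 58 ended at 61984450, before the gene boundary at 61985341. Stat3, an activator of Mir21a, held 9 HEPA1-6 peaks and 1 liver peak with scores of at most 22 and 17. Foxa1 and Mycn held none. Among 16 target genes, 13 (81.3%) had a peak in HEPA1-6 and 10 (62.5%) in liver, beside the same 42.0% and 29.7%. Their median length of 40936 bp, against 17169 bp, leaves these shares unmatched as well. Bcl2l11, an apoptosis gene repressed by miR-17-92, was highest in both (112 and 95). Slc7a1 and Aldoa, targets of miR-122, held peaks in both lists (72 and 60, 76 and 32), and Ccng1, a further target of miR-122, in HEPA1-6 only (21). Spry1, Ccng1 and Tgfbr2 made up the targets with a peak in HEPA1-6 only. These were 3 of 13, beside 3114 of 9191 over all protein-coding genes with a HEPA1-6 peak.

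Marker genes of liver cell types and of proliferation were looked at as well, although a peak cannot check the label of a sample. Peaks were listed at 5 of 15 hepatocyte genes in HEPA1-6 and 4 of 15 in liver, and at 8 and 6 of 8 proliferation genes. The hepatocyte shares of 33.3% and 26.7% lay near the 42.0% and 29.7% of all protein-coding genes, so these peaks do not set the hepatocyte genes apart. In HEPA1-6 only, as at 3114 of 9191 protein-coding genes with a HEPA1-6 peak, a peak was listed at Apob (score 15), Aurkb (25) and Mcm5 (27). Ccnb1 was the highest of the proliferation genes (112 and 50). Of the 15 hepatocyte genes, Alb had 2 peaks in each list, with highest scores of 670 and 54. Apoa2 (37 and 38), Trf (38 and 30) and Hnf4a (39 and 39) also had peaks in both lists. Besides these and Apob, the hepatocyte genes had no peak in either list, Apoa1, Ttr, Cps1 and Cyp3a11 among them. No marker of Kupffer or endothelial cells (5 each) held a peak in either list, and 1 of 4 held one for cholangiocytes (Sox9) and for stellate cells (Dcn), in both lists. The part of the cell makeup of the liver sample in the peaks at the 4 loci was not tested. In tissue, fewer cells with an R-loop and fewer R-loops per cell cannot be told apart.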

How the data were processed

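S9.6 immunoprecipitates, RNase H1 controls and inputs of HEPA1-6 and mouse liver were sequenced, 12 libraries in all, and 1 peak list per source was used. The names of the peaks in the deposited lists say that pooled immunoprecipitates were compared with input. The submitters' processing notes name CASAVA 1.8.2, cutadapt, Bowtie2, SAMtools, bedtools and MACS2 and the build mm10, with no role or settings. Each peak carries the authors' score, a whole number from 10 upward whose scale is not given, which was used only within a list. A stricter threshold or a deeper library would change which peaks are listed, and the depth is not given in the sources used here. Per the labels' protocols, DNA was extracted after a published R-loop mapping method and sonicated before library preparation.

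From these lists, peaks were laid over RefSeq genes of GRCm38.p6, the same assembly as mm10, 1-based, with Python 3.11.15, pandas 2.3.3 and SciPy 1.17.1. Genes were counted where at least 1 bp of a peak fell on the gene or on the 1 kb to either side. Percentiles are mid-ranks within a list. Promoter windows, microRNA sequences and strands are from RefSeq tables of the same build, matched by gene ID. Genes of a list were matched by symbol or, for 3 microRNAs, by synonym. The counting functions were tested on simulated data. No test between sources was possible with 1 list each, and intervals are 95% Wilson intervals. Named were the 4 members, all genes and microRNAs at peaks in their windows, the 3 microRNA genes nearest by percentile, and from each gene list those with the highest score or a peak in 1 list only. Some further genes of the lists (Drosha, Dgcr8, Xpo5, Dicer1, the Argonautes, Hnf4a, Stat3, Foxa1, Mycn, Slc7a1, Aldoa, and markers and paralogous microRNAs) were named after their values were seen. The members and lists were chosen with earlier results of these data known.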

Additional observations from a re-analysis of the deposited data

How the results depend on the processing

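The counts at the loci depend most on the flank. Without a flank, 2 HEPA1-6 peaks and 1 liver peak remained at the 4 loci, and 1 locus had a liver peak and 1 a peak in both lists. With 5 kb there were 9 and 7 peaks, and 4 loci held a peak in each list and in both. With scores at or above the list median, liver peaks numbered 1, at 1 locus, which was then also the only locus with both. By the midpoint of a peak, 1 locus held a peak in both lists. An overlap of 50% of both peaks left 2 shared peaks in each list. The share of microRNA genes with a peak fell to 17.9% in HEPA1-6 and 8.14% in liver without a flank, and merging microRNA genes within 10 kb gave 28.8% in HEPA1-6. The loci with a HEPA1-6 peak, 3 by the main rule, numbered 2 without a flank, 4 with 5 kb and 2 by the midpoint. With scores at or above the list median, genes with a liver peak went from 15 to 13 for processing, from 13 to 10 for regulators and from 10 to 7 for targets. Percentiles of scores moved by -1.50 to 0.42 points. Alternatives chosen after seeing the data took Mir17hg from its first hairpin, which gave 4 loci with a HEPA1-6 peak, 3 with a liver peak and 3 with both, and Vmp1 in place of Mir21a, which gave 3 each.

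No paired analysis was possible because each source has a single pooled list, although the labels share replicate numbers. Leaving out replicates was not possible for the same reason. A peak missing from a list can lie below its threshold at an unknown depth.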
